A study of Mus musculus with 18 samples.

Results

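The liver makes most of the complement and clotting proteins of plasma, and 35 of their genes were compared here between mice fed linseed oil and mice fed palm oil. The genes were chosen by symbol: every non-control probe whose gene name was 1 of 35 listed symbols was taken, which gave 46 probes and 64 spots of the 39429 non-control probes on the array (35 of 31709 genes). They comprise 15 complement genes with 21 probes and 20 coagulation genes with 25 probes. All 35 were well above background on enough arrays to be tested. No member passed an adjusted p of 0.05 in the limma comparison of all genes, where 0.901% of the genes tested passed. The differences were small, yet 25 of the 35 were lower on linseed oil, against 50.6% of all genes tested. Without the spots that the image software marked, 18 of 28 were lower, against 51.3%. Among the lowest were genes of the terminal complement complex (C8b, C9, Hc) with C2, Cfi, F11 and Cpb2, which were lower by 0.23 to 0.50 on the log2 scale. Hc, C8b and Cpb2 could not be tested without marked spots.

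The mice were male C57BL/6J, an inbred laboratory strain, 8 weeks old when they were assigned at random to a diet and 13 weeks old at the end of 5 weeks. Both diets were high in fat (51.1% of energy, with 32.1% from carbohydrate and 16.7% from protein). The linseed diet (8 mice) held 66.7% polyunsaturated fatty acids (49.7% alpha-linolenic acid), with 9.7% saturated and 22.5% monounsaturated. The palm diet (10 mice) held 55.6% saturated, 34.8% monounsaturated and 8.8% polyunsaturated. There was no low-fat group, so each difference sets one high-fat diet against the other. Mice were housed together, and which mice shared a cage was not used here.

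Complement is a cascade of plasma proteins in which lectins or antibodies on a microbe start proteases that cleave C4 and C2, then C3, and then C5. C5b gathers C6 to C9 into a pore, the membrane attack complex. Coagulation is a parallel cascade of proteases in which the contact factors and the vitamin K dependent factors lead to thrombin, which turns fibrinogen into fibrin, and it is held back by anticoagulants and undone by plasmin. Hepatocytes secrete nearly all of these proteins, and several rise in the acute phase of inflammation.

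One-colour arrays were used, 1 for each liver. Levels are log2 of the background-subtracted signal relative to the array's own 75th percentile, so a level is in log2 units above that percentile, and levels of different probes are not compared with each other. Differences are linseed minus palm, ± SE from limma, and a difference of -0.50 is 1.41-fold lower. Per array, 19182 to 24928 spots were well above background, the 75th percentile was 117 to 204 intensity units, and 238 to 1703 spots were marked by the image software as non-uniform or outlying. Slides were read from the barcodes in the file headers, and 3 arrays without a barcode were taken as 1 slide (slide 1). The 5 slides so defined each held both diets. Of the hepatocyte markers Alb, Apoa1, Ttr, Cps1 and Apob, all 5 were above background on these arrays (Tf was not found by that name). In bulk liver RNA, fewer cells of a type and less RNA per cell cannot be told apart.

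The members are bright genes, and this shapes how they can be read. The probe that stood for the gene lay in the brightest decile for 31 of the 35, and 23 had a marked spot on some array. Of the member probe values 14.99% were marked, against 1.94% of all probe values. Marking was also uneven between slides. An array had 1283 to 1703 marked spots on slide 4 and 1431 to 1634 on slide 5. It had 556 to 682 on slide 1, 238 to 424 on slide 2 and 252 to 354 on slide 3. Leaving marked spots out therefore removes more values from slides 4 and 5 than from the others. With marked spots left out only 28 members had enough arrays to be tested (Hc, C8b, Mbl2, F2, Proc, Plg and Cpb2 dropped out) and 13 of these 28 lost some arrays. Values are therefore given with marked spots kept, for all 18 arrays, and the reading without them is set beside the results. C3 and F10 were saturated on every array of both diets, at the scanner's ceiling, so no fold is given for them. Fgb, Fgg, Kng1 and Serpinc1 were saturated on some arrays of both diets, and more often on palm oil. Of 8 linseed and 10 palm arrays, Fgb was saturated on 4 and 8, Fgg on 1 and 6, Kng1 on 1 and 8, and Serpinc1 on 2 and 6.

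The probes behind the 5 genes that passed in a fit with slide as a block, described further on, are shown by their first 30 of 60 bases, 5′ to 3′, as the array files give them (positions of the whole probe in mm9).
C2: tctctagtgtggatgacccgtgctcctttt
Cfi: ggctagtcctaaagtttcttccaagtttat
Hc: gccggaagaagagacccactgaaactgtag
C8b: catcccttggtaagcacagagtcttcttca
Cpb2: gcatgtcatcaggaacacttaatgccctaa
These probes lie at chr17:34999575-34999634 (C2, minus strand), chr3:129578165-129578224 (Cfi, plus), chr2:34838899-34838958 (Hc, minus), chr4:104477094-104477153 (C8b, plus) and chr14:75683201-75683260 (Cpb2, plus). Each of these 5 genes had 1 probe, and none of the 5 shared a run of 20 bases with a probe of another gene on the array.

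With marked spots kept, 0 of 35 members passed an adjusted p of 0.05 in limma, where 0.901% of the 16544 genes tested passed. With marked spots left out it was 0 of 28, where 0.759% of 15951 genes passed. At an unadjusted p of 0.05, 11 of 35 members (31.4%) were lower on linseed oil against 4.27% of all genes tested, and 0 were higher against 6.33%. Without marked spots 7 of 28 (25%) were lower against 4.15% of all genes, and 0 were higher against 6.01%. The 11 genes were C8b, F11, C9, Hc, Cpb2, C2, C8a, Cfi, F13b, Masp1 and Pros1. The median difference over the 35 members was -0.10, against -0.002 over all genes tested, of which 50.6% were lower on linseed oil.

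**Figure D1:**
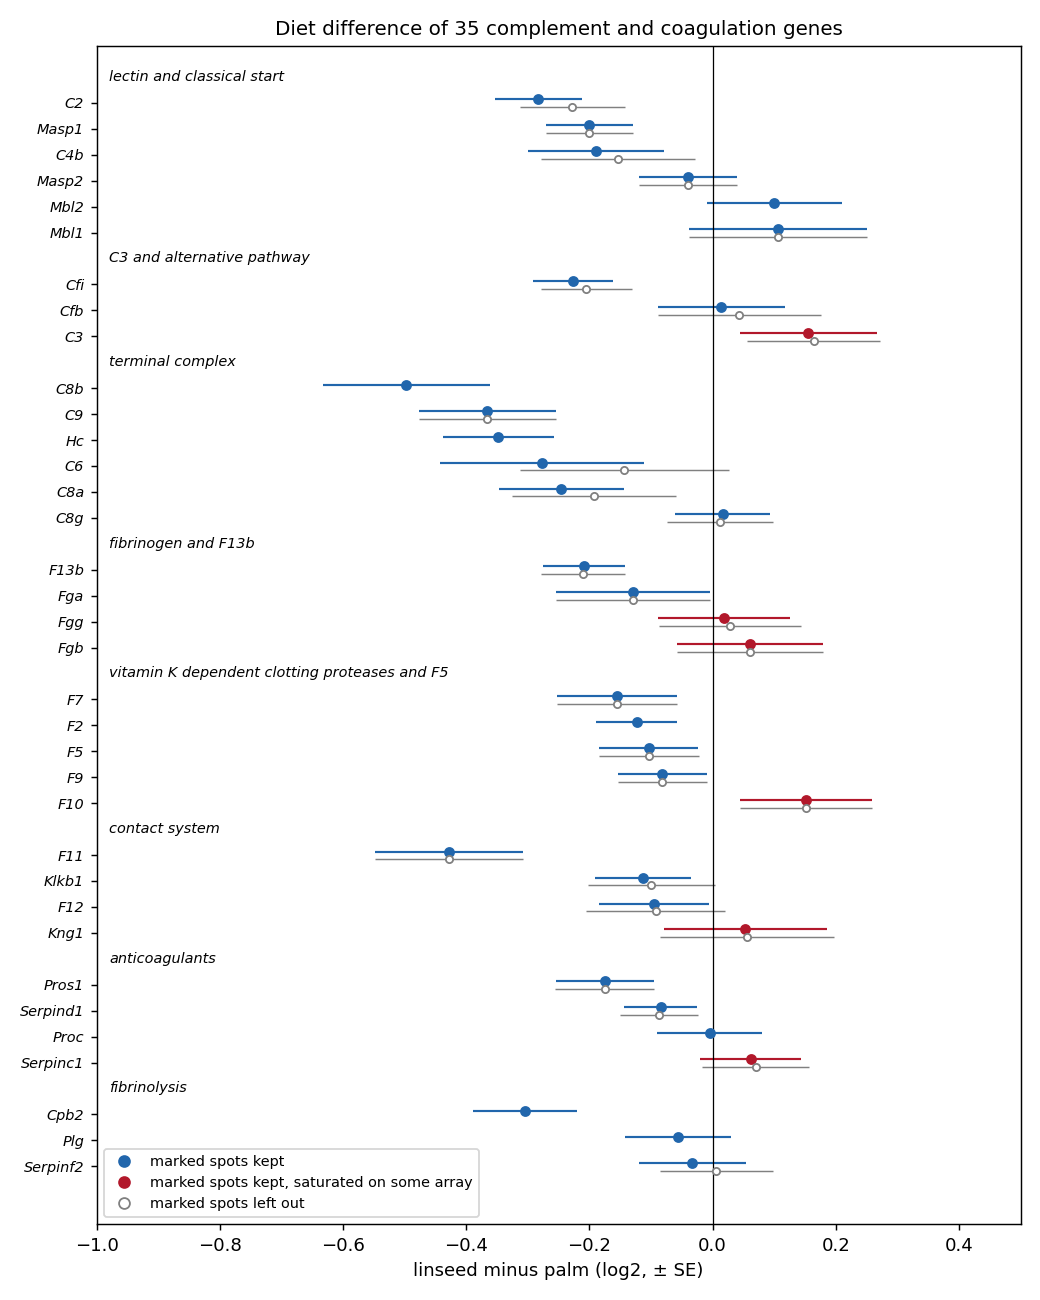
Difference between diets (x axis, linseed minus palm, log2, bars ± SE from limma) for each of the 35 genes, grouped by role (y axis), with marked spots kept (filled; red where a spot was saturated on some array) or left out (open). The points run from -0.50 for C8b to 0.15 for C3; all 6 red points lie above 0, and 25 of the 29 blue points lie below it.

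In the lectin and classical start, C2 and Masp1 had the smallest p of 6 genes, and neither passed. C2, a protease which joins C4b to form the convertase that cleaves C3, was measured on linseed oil from 4.71 to 5.15 (median 4.90) and on palm oil from 4.96 to 5.35 (median 5.22). Every linseed value lay below the palm median and 5 of the 8 lay below the lowest palm value, while the ranges overlapped. The difference was -0.28 ± 0.071 (adjusted p = 0.072), a 1.22-fold lower level, and -0.23 ± 0.085 without marked spots (adjusted p = 0.347, 6 linseed and 8 palm arrays). Masp1, a protease that is activated on bound lectins, ranged from 3.17 to 3.66 on linseed oil (median 3.49) and from 3.46 to 3.86 on palm oil (median 3.65), with 7 of 8 linseed values under the palm median. Its difference was -0.20 ± 0.07 (adjusted p = 0.268; 0.289 without marked spots). A second Masp1 probe gave 0.11 ± 0.078, in the other direction, so the gene's probes disagree.

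The other members of this group did not separate on the probe used. C4b, its partner in the classical convertase, differed by -0.19 ± 0.11 (adjusted p = 0.587), and the mannose-binding lectins Mbl1 and Mbl2 by 0.11 ± 0.14 and 0.10 ± 0.11. Masp2, the gene of the protease that cleaves C4 and C2, differed by -0.04 ± 0.079 on its brightest probe. A further Masp2 probe that lies downstream, at chr4:147989478-147989537 in mm9, gave -0.31 ± 0.093 (adjusted p = 0.152 over probes), where the third gave 0.003 ± 0.092. The downstream probe is annotated to another transcript than the brightest, and its mean level was 0.28 on linseed and 0.60 on palm oil. Which Masp2 product each probe reads was not tested. Over the 6 genes the median was -0.11, with 4 lower.

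Of C3 and the alternative pathway genes, Cfi, the protease that inactivates C3b and C4b, had the smallest p. Its level ran from 6.46 to 6.78 on linseed oil (median 6.64) and from 6.72 to 7.06 on palm oil (median 6.82). All linseed values were under the palm median, 5 of 8 were under the lowest palm value, and 7 of 10 palm values were above the highest linseed value. The difference was -0.23 ± 0.065 (adjusted p = 0.136), or 1.17-fold, and -0.21 ± 0.074 without marked spots (adjusted p = 0.309). C3, the central component of all 3 routes, read 8.24 to 9.05 on linseed oil (median 8.64) and 8.32 to 8.95 on palm oil (median 8.42), saturated throughout. The ranges overlapped almost completely, but at the scanner's ceiling they are not read as a comparison of the diets. Its second probe, saturated on 3 palm arrays, gave 0.08 ± 0.12. Cfb, the protease of the alternative convertase, differed by 0.01 ± 0.10 (adjusted p = 0.98; 95% interval -0.20 to 0.23).

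The genes of the terminal complex gave the most negative median of the 8 roles, -0.31, with 5 of 6 lower on linseed oil. Without marked spots it was -0.17 over 4 genes, 3 of them lower, close to the -0.15 of the lectin and classical start in that reading. Hc encodes C5, whose fragment C5b starts the pore. It ran from 6.71 to 7.18 on linseed oil (median 6.94) and from 7.02 to 7.70 on palm oil (median 7.25). Of the 10 palm values 8 were above every linseed value, and 5 of 8 linseed values were below every palm value. The difference was -0.35 ± 0.09 (adjusted p = 0.0821), 1.27-fold lower.

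C8b encodes the beta chain of C8, which joins the growing pore. Its levels were 4.28 to 5.22 on linseed oil (median 4.67) and 4.71 to 5.43 on palm oil (median 5.28). The palm values fell into 8 high and 2 low arrays, as the plot of levels by array shows, and the linseed values spread over nearly the whole range. The difference of -0.50 ± 0.14 was the most negative of the 35 (adjusted p = 0.104).

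C9, C8a and C6 are added here after their values were seen. C9, the subunit that polymerises into the pore, ran from 2.09 to 2.69 on linseed oil (median 2.50) and from 2.30 to 3.29 on palm oil (median 2.88). It had no marked spot, and 8 of 10 palm values were above the highest linseed value. Its difference was -0.37 ± 0.11 (adjusted p = 0.168; 0.184 in the reading without marked spots). C8a, the alpha chain, differed by -0.25 ± 0.10 (adjusted p = 0.376) and by -0.19 ± 0.13 on its second probe. C6 differed by -0.28 ± 0.17 (adjusted p = 0.601) and by -0.14 ± 0.17 without marked spots, so its value depends on 3 palm arrays with marked spots. C8g, the gamma chain, differed by 0.02 ± 0.077 (95% interval -0.15 to 0.18).

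**Figure D2:**
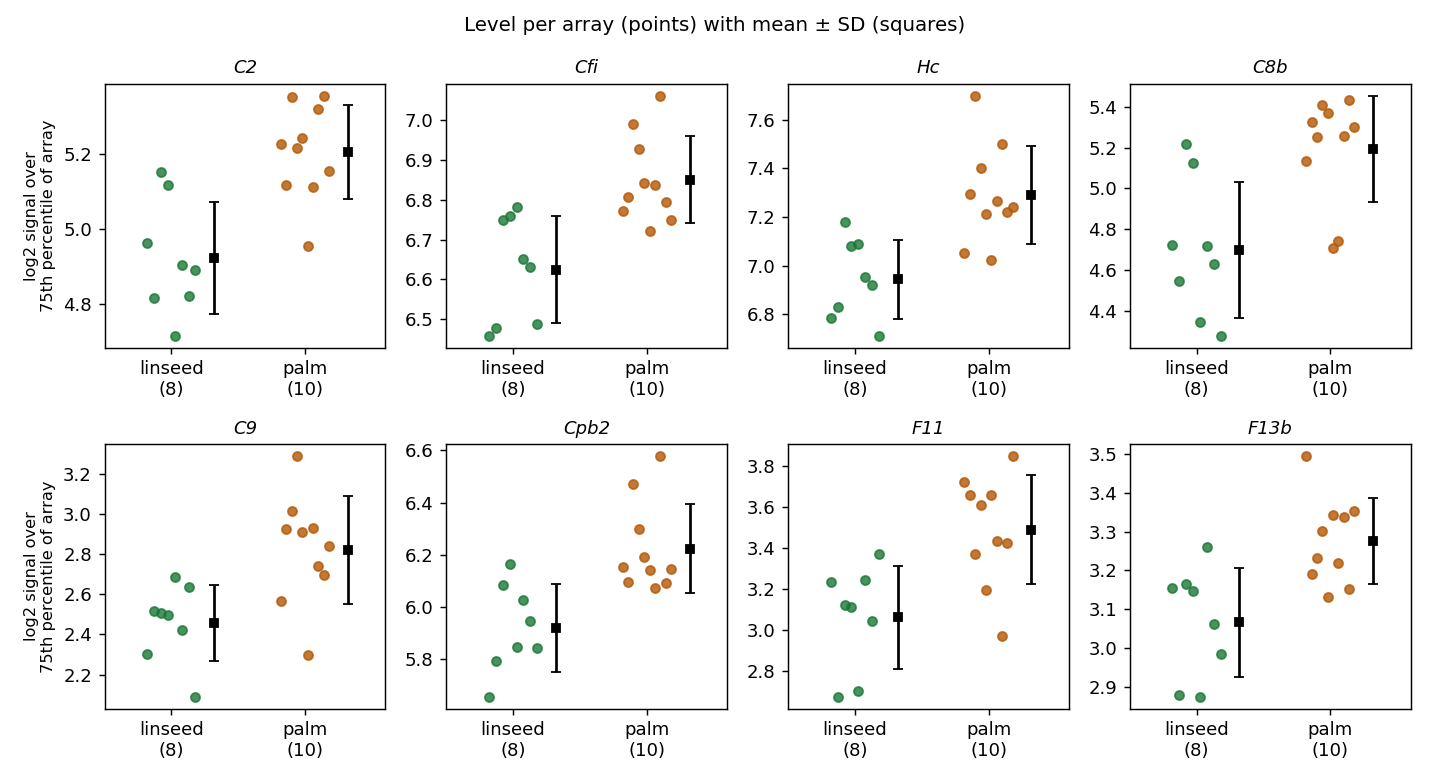
Level of 8 genes on each array (y axis, log2 signal over the array's 75th percentile) for 8 linseed and 10 palm arrays, with the mean ± SD of each diet as squares. The palm values of C8b fall into 8 high and 2 low arrays, and in every panel the lowest palm value lies under the highest linseed value.

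Among the coagulation genes, the 15 that were never saturated all had values below 0, with a median of -0.11 and 4 of them at an unadjusted p under 0.05; Proc was within 0.01 of 0. Without marked spots 10 of 11 were lower, with a median of -0.10. Of the fibrin genes, F13b, the carrier chain of the factor that cross-links fibrin, ran from 2.88 to 3.26 on linseed oil (median 3.105) and from 3.13 to 3.49 on palm oil (median 3.27). Every linseed value was under the palm median and 4 of 8 were under every palm value. Its difference was -0.21 ± 0.067 (adjusted p = 0.201; 0.223 without marked spots). Fga, the fibrinogen alpha chain, ran from 4.14 to 5.12 on linseed oil (median 4.61) and from 4.50 to 5.13 on palm oil (median 4.72), and differed by -0.13 ± 0.12 (adjusted p = 0.785). The diets overlapped over most of that range. Its neighbours on chromosome 3, Fgb and Fgg, differed by 0.06 ± 0.12 and 0.02 ± 0.11, with saturated spots on 12 and 7 of 18 arrays.

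The vitamin K dependent proteases and their cofactor F5 differed little. F2, prothrombin, ran from 7.25 to 7.74 on linseed oil (median 7.62) and from 7.60 to 7.85 on palm oil (median 7.72), with 7 of 8 linseed values under the palm median. Its difference was -0.12 ± 0.065 (adjusted p = 0.536), not tested without marked spots. F7, which starts coagulation with tissue factor, ran from 2.14 to 2.90 on linseed oil (median 2.64) and from 2.42 to 3.04 on palm oil (median 2.75); the lowest value, of linseed mouse 1, stood apart. Its difference was -0.16 ± 0.097 (adjusted p = 0.623), with -0.20 ± 0.096 on a second probe that overlaps it. F9 differed by -0.08 ± 0.072 and F5 by -0.10 ± 0.08, with 0.01 ± 0.052 on the other F5 probe.

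F10, the protease that makes thrombin, had 2 probes. Their first 30 bases are shown because the brighter one shares sequence with probes of other genes.
F10, brighter probe: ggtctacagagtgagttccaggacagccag
F10, other probe: tggcatctacacaaaggtcacgaccttcct
The brighter probe (chr8:13056119-13056178, mm9, plus strand) shared a run of 20 bases with probes of 13 other genes on the array and with 58 of 32851 RefSeq promoters. It was the only 1 of the 46 member probes to share such a run with either. It was saturated on all 18 arrays and gave 0.15 ± 0.11. The other probe (chr8:13055774-13055833, plus strand) was never saturated and gave -0.03 ± 0.089 (adjusted p = 0.947 over probes), but its spot was marked on 4 linseed and 6 palm arrays and it could not be tested without marked spots. Counts and medians of members use the brighter probe.

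F11 was the lowest of the coagulation genes. It encodes factor XI, the contact protease that activates factor IX, and its level ran from 2.67 to 3.37 on linseed oil (median 3.12) and from 2.97 to 3.85 on palm oil (median 3.52). All linseed values were under the palm median and 8 of 10 palm values were above every linseed value. The difference was -0.43 ± 0.12 (adjusted p = 0.119; 0.131 in the reading without marked spots, although no F11 spot was marked), 1.35-fold lower. Klkb1, plasma prekallikrein, encoded beside F11 on chromosome 8, ran from 4.85 to 5.33 on linseed oil (median 5.01) and from 4.84 to 5.39 on palm oil (median 5.15). Those ranges nearly coincided, and the difference was -0.11 ± 0.078 (adjusted p = 0.659). F12, the first contact protease, differed by -0.10 ± 0.089. Kng1, the kininogen they cleave, gave 0.05 ± 0.13 on a probe saturated on 9 arrays and -0.10 ± 0.083 on one that was not.

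The promoters of C9 and F11, a complement and a coagulation gene that had no marked spot and were both lower, are shown because they hold a motif in common. Each line gives the 250 bases before the annotated start on the gene's strand, 5′ to 3′, from RefSeq (GRCm38.p6). Capitals mark a match to TTGCNNAA, on either strand, a motif of the C/EBP factors of hepatocytes.
C9: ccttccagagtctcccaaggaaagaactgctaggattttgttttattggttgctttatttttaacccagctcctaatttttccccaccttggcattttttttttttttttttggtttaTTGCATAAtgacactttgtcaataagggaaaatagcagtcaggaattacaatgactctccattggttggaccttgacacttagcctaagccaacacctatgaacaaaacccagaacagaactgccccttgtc
F11: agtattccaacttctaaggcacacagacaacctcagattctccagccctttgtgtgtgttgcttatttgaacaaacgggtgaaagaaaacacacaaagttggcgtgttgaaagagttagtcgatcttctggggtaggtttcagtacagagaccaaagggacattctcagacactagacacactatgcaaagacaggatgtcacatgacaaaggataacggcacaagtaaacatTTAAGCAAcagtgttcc
They lie at chr15:6445096-6445345 (C9, plus strand) and chr8:45262032-45262281 (F11, minus), and the match begins 132 and 17 bases before the start. Of the 35 members 27 had a promoter in the table, and 7 of these (25.9%) held the motif (C3, C9, F9, F11, Fga, Fgb and Klkb1), against 10.8% of all 27025 genes there. Holding it did not go with a lower value throughout. C3 and Fgb, which have saturated spots, were at 0.15 and 0.06, and F9, Fga and Klkb1 at -0.08, -0.13 and -0.11. Hc, C8b, Cpb2, C8a, F13b and Pros1, lower at an unadjusted p under 0.05, had no match in their promoters. The other motifs searched on both strands were TTCNNNGAA for STAT (6 of 27, 22.2%, against 8.13%) and TATAAA (2 of 27, 7.41%, against 14.3%). A match of letters is not a bound site. Cebpa and Cebpb, which encode factors of that family, differed by 0.10 ± 0.11 and 0.02 ± 0.18 (adjusted p = 0.807 and 0.985).

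Of the anticoagulants, Pros1, the cofactor of activated protein C, ran from 0.80 to 1.15 on linseed oil (median 0.88) and from 0.81 to 1.45 on palm oil (median 1.05), and 7 of 8 linseed values were under the palm median. Its difference was -0.18 ± 0.08 (adjusted p = 0.446; 0.467 without marked spots). Serpind1, heparin cofactor II, ran from 6.15 to 6.48 (median 6.33) and from 6.27 to 6.53 (median 6.38) on linseed and palm oil. It differed by -0.08 ± 0.059 (adjusted p = 0.672), with the diets overlapping over most of the range. Proc, protein C, differed by less than 0.01 with a 95% interval of -0.18 to 0.17. Serpinc1, antithrombin, gave 0.06 ± 0.081 with saturated spots on 8 arrays.

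Cpb2, a carboxypeptidase that protects fibrin from plasmin, had the smallest p of the 3 genes of fibrinolysis. Its level ran from 5.66 to 6.16 on linseed oil (median 5.89) and from 6.07 to 6.58 on palm oil (median 6.15). Of the 8 linseed values 6 lay below every palm value, and the ranges overlapped. The difference was -0.30 ± 0.084 (adjusted p = 0.108), 1.24-fold lower, and it could not be tested without marked spots, since 7 of 8 linseed and 9 of 10 palm arrays had its spot marked. Plg, the plasmin precursor, ran from 6.66 to 7.27 on linseed oil and from 6.77 to 7.22 on palm oil, with a median of 6.98 on both. It differed by -0.06 ± 0.086, and Serpinf2, the plasmin inhibitor, by -0.03 ± 0.087.

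Arrays of a slide resembled each other (consensus correlation 0.213), and the fit was repeated with slide as a block. By the headers, arrays of a slide also shared their scan entry, so slide and scan cannot be told apart in this block. With slide as a fixed block and marked spots kept, 5 of 35 members passed, all lower on linseed oil (14.3%, against 0.345% of all genes passing in that direction and 1.12% in either). They were Hc (adjusted p = 0.0224), Cpb2 (0.0281), C2 (0.032), Cfi (0.0461) and C8b (0.0483), 4 complement genes and 1 coagulation gene. With slide as a random block the same 5 genes passed, against 0.435% of all genes lower, with adjusted p from 0.0209 to 0.044. In the authors' deposited value table, fitted in the same way without a block, Hc (-0.42, adjusted p = 0.0194), Cpb2 (-0.34, adjusted p = 0.0306) and Cfi (-0.23, adjusted p = 0.0444) passed, against 0.196% of all genes lower. With marked spots left out, none of the 28 members tested passed with either block; Hc, C8b and Cpb2 were not among them. So the calls of C2 and Cfi with a block were lost without marked spots, and those of Hc, C8b and Cpb2 could not be tested there. Calls in other settings are given at the end.

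Within slides, 10 of 35 members (28.6%) were lower on linseed oil on all 5 slides, against 5.75% of all genes, and 0 were higher on all 5, against 7.13%. They were C2, Masp1, Cfi, Hc, C8b, F13b, F9, F5, F11 and Cpb2. Cpb2 was the most even, at -0.40 to -0.26. C8b ran from -1.09 on slide 5 to -0.16 on slide 3, and F11 from -0.74 on slide 2 to -0.06 on slide 4. Cfi was at less than 0.001 below 0 and F9 at -0.01 on slide 1, so their sign there is not resolved. Hc was at -0.03 on slide 1 and at -0.52 to -0.37 on the other slides. C9 and C8a were lower on 4 slides and higher on slide 1, by 0.08 and 0.14. Slides 1 and 5 held 1 linseed and 2 palm arrays each, so their differences rest on a single linseed mouse.

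**Figure D3:**
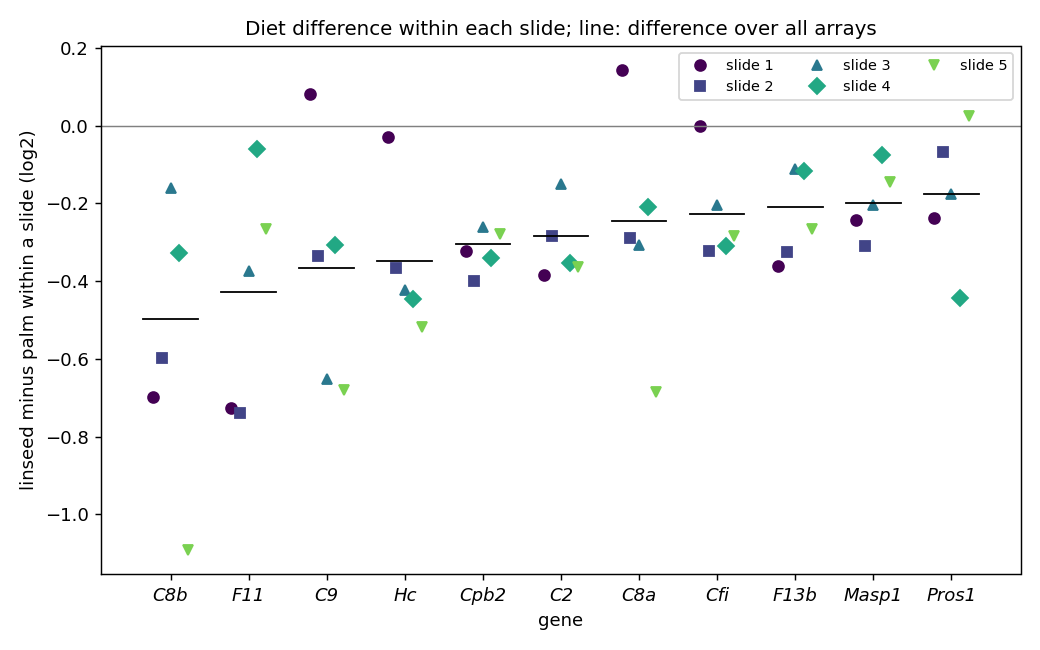
Difference between diets within each of the 5 slides (y axis, linseed minus palm, log2) for the 11 genes with an unadjusted p under 0.05 (x axis); the black line is the difference over all arrays. Cpb2 lies between -0.40 and -0.26 on every slide, and the points above 0 are C9 and C8a on slide 1 and Pros1 on slide 5.

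The contrast of complement with coagulation genes is given by their medians. With marked spots kept it was -0.20 over 15 complement genes (10 lower) and -0.09 over 20 coagulation genes (15 lower). Among genes never saturated it was -0.21 over 14 complement genes (10 lower) and -0.11 over 15 coagulation genes (15 lower). With marked spots left out it was -0.15 over 12 complement genes (8 lower) and -0.09 over 16 coagulation genes (10 lower). Among genes never saturated it was then -0.15 over 11 complement genes (8 lower) and -0.10 over 11 coagulation genes (10 lower). Taken per array with marked spots kept, over genes never saturated and each centred on its mean, the complement median ran from -0.29 to 0.20 on linseed oil (median -0.07). On palm oil it ran from -0.23 to 0.26 (median 0.05). For coagulation genes it ran from -0.28 to 0.12 on linseed oil (median -0.05) and from -0.02 to 0.19 on palm oil (median 0.04). The linseed arrays thus reached lower values for both groups, and the diets overlapped. On the array level, complement minus coagulation over these 29 never saturated genes differed by -0.01 between diets, less than its SD within linseed (0.066) and palm (0.10) arrays. Palm mouse 6 was lowest in that contrast and palm mouse 8 highest.

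The 6 genes with saturated spots were all higher on linseed oil, by 0.02 to 0.15, and this moved with the scaling. Their median per array ran from -0.35 to 0.46 on linseed oil and from -0.27 to 0.43 on palm oil, high on arrays with a low 75th percentile and low on arrays with a high one. The log2 of that percentile was lower on linseed than on palm arrays by 0.15 on average. On slide 1 it was lower by 0.43 and the saturated genes were higher by 0.42. C3 and F10 stood at the scanner's ceiling on every array, so their level is little more than the ceiling over the percentile. Both differed by 0.15, the percentile's difference with its sign turned. In the authors' value table both were at 3.4e-05. The part of the scaling, or of saturation unequal between diets, in Fgb, Fgg, Kng1 and Serpinc1 was not tested. No diet difference is read from the sign of these 6. With quantile normalization Fgb, Fgg, Kng1 and Serpinc1 were at -0.05, -0.11, -0.08 and -0.06. Never saturated coagulation genes had medians of 0.12 on linseed mouse 3 and 0.19 on palm mouse 3 (log2 percentiles 6.88 and 6.95). On linseed mice 1 and 8 (7.67 and 7.60) they had -0.28 and -0.20. Complement genes on these arrays had 0.20, 0.26, -0.27 and -0.29. Not every array went this way, as palm mouse 8 (7.62) had 0.04 and 0.15. The part of the percentile in the never saturated genes was not tested.

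**Figure D4:**
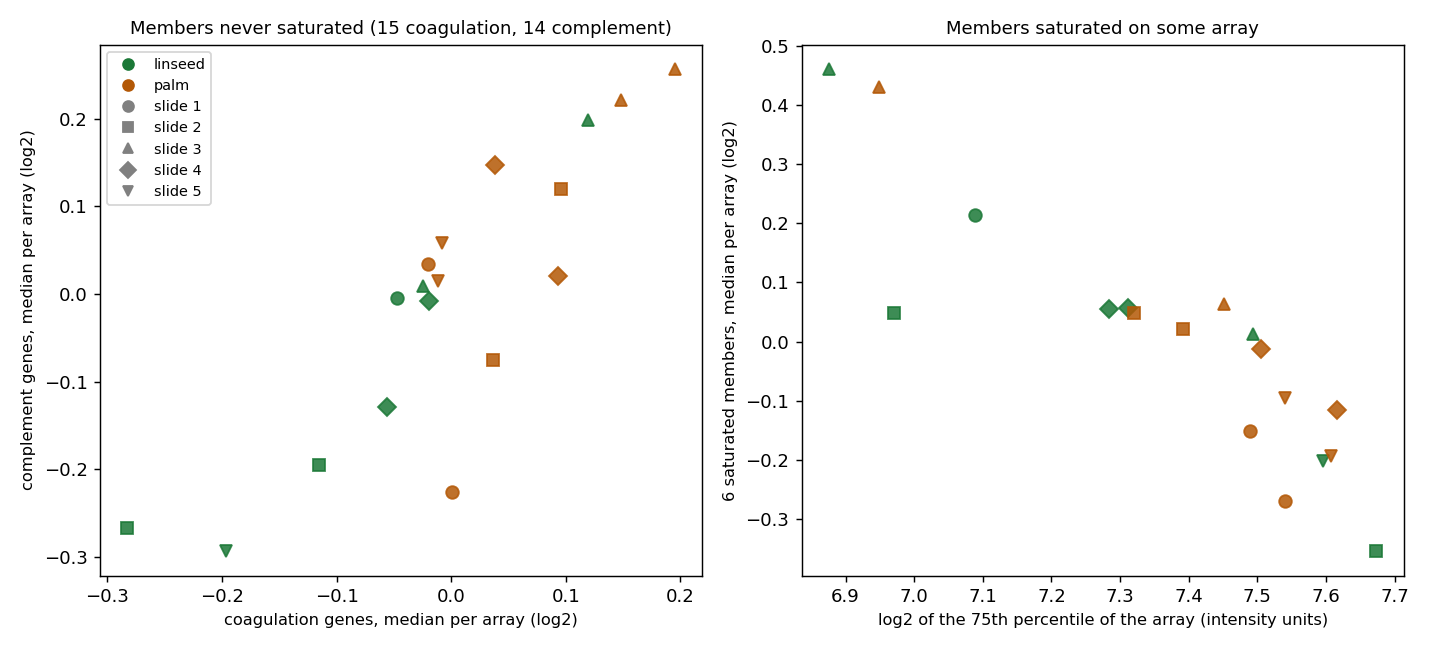
Median per array (log2, each gene centred) of complement against coagulation genes never saturated (left), and of the 6 saturated genes against the log2 of the array's 75th percentile (right); colours are diets and symbols slides. Left, the 3 arrays lowest in coagulation genes are linseed arrays and palm mouse 3 is highest on both axes; right, points fall from 0.46 at a low percentile to -0.35 at a high one.

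Other genes of the pathways, from a list that left out the 35, changed little. Of 55 listed, 42 were tested, 1 passed and it was lower, and 27 were lower in value (median -0.05). That gene was Habp2, a plasma protease that cleaves factor VII and fibrinogen. It ran from 4.33 to 4.82 on linseed oil (median 4.62) and from 4.74 to 5.13 on palm oil (median 4.96), a difference of -0.36 ± 0.079 (adjusted p = 0.0347; 0.0796 without marked spots, which ends the call). C1ra, the classical protease C1r, differed by -0.25 ± 0.079 (adjusted p = 0.189). Cfd, the alternative pathway protease that fat cells secrete, is added after its values were seen and differed by 2.54 ± 0.88 (adjusted p = 0.262). Cfd ran from 0.84 to 5.17 on linseed oil and from -3.04 to 3.34 on palm oil, and the ranges overlapped widely.

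Of 18 acute phase genes tested, Orm1 and Orm2, the orosomucoids, passed, at -1.08 ± 0.14 and -1.08 ± 0.19 (adjusted p = 0.000615 and 0.00669), and 15 were lower in value (median -0.17). Of 14 regulators tested, such as Hnf4a and Cebpa, 0 passed in limma. Without marked spots 12 of the regulators were tested, Hnf4a and Il6ra not among them, and 0 passed. Ppara, the fatty acid receptor, at 0.15 ± 0.069 (adjusted p = 0.455), was the 1 gene among them with an unadjusted p under 0.05; without marked spots it was 0.29 ± 0.085 (adjusted p = 0.165). Nfkb1 followed at 0.23 ± 0.12. The summed level of 4 neutrophil markers (linear, relative to the array's 75th percentile) was 0.43 to 2.55 on linseed oil and 0.70 to 7.79 on palm oil. The highest was palm mouse 3, which also had the highest array medians of complement, coagulation and acute phase genes. Its array had the lowest 75th percentile of the palm arrays. Ngp and Ltf were not above background. Of the 5 hepatocyte markers 4 were higher on linseed oil, with a median of 0.13, and 0 passed. Apob was at 0.23 ± 0.12, and at 0.41 ± 0.16 without marked spots (adjusted p = 0.381). Alb and Ttr read from 8.30 to 9.11 and from 8.47 to 9.21 on linseed oil, a range in which members were saturated. Whether Alb and Ttr were saturated is not given here, so no diet difference is read from their sign. The part of the hepatocyte markers in the members' values was not tested. No marker gene of Kupffer cells (9 tested), endothelial cells (6), stellate cells (6), bile duct cells (3), platelets (2) or erythroid cells (2) passed; C1qa, C1qb, C1qc and Colec11 stand both among these markers and among the other pathway genes. The part of these cells in the members' values was not tested. Leaving out palm mouse 3 left 24 of 35 members lower and a complement median of -0.21.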

How the data were processed

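Per the labels' protocols, liver RNA of 18 mice was labelled with Cy3, 1 array per mouse. Per the file headers, the authors extracted spot intensity values with Agilent Feature Extraction 9.5.3.1, with the local background taken off but no scaling from array to array (Feature Extraction 9.5 and limma are named in the submitters' processing notes). The authors' deposited value table of 18060 probes holds log2 values with unstated scaling and array medians of 7.85, and served as an alternative.

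The intensity values as deposited were divided by each array's 75th percentile over non-control probes and taken to log2. Spots of a probe were averaged, a probe was kept if well above background on at least 8 arrays with at least 6 values per diet, and a gene was represented by its brightest such probe. The diet comparison used limma 3.58.1 (R 4.3.3) (no covariates, two-sided, Benjamini-Hochberg adjusted over all genes tested), and the procedure was tested on simulated data. Replicates are mice by their titles. Of the probes, 26055 were named by accession, 3195 by symbol and 930 by synonym through a RefSeq table (GRCm38.p6, names only), and 9249 kept the file's name. Adjusted p-values of single probes come from a fit over all kept probes.

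All members are named. In each role the 2 members with the smallest p are given in full, and of the other lists each called gene and the 2 with the smallest p. The members, lists and rules were chosen with earlier results of these data known. Alternatives were other background corrections, scalings, filters, probes, blocks, and leaving out arrays or slides. The number of arrays and saturation limit the precision. Some genes of the lists are not reported here.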

Additional observations from a re-analysis of the deposited data

Results flagged for a closer look

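In 6 of 74 sets of values of 1 gene in 1 diet, a single mouse stood far from the others by Dixon's criterion at the 95% level, which chance passes in about 1 of 20. Linseed mouse 1 was low for F7 (2.14, next 2.59). Linseed mouse 2 was low for F9 (2.09, next 2.38). Linseed mouse 4 was high for Pros1 (1.15, next 0.92). Palm mouse 3 was high for C3 (8.95, next 8.61), Fgb (9.14, next 8.76) and Fgg (9.16, next 8.75), 3 genes with saturated spots on an array whose log2 75th percentile (6.95) was the lowest of the palm arrays.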

How the results depend on the processing

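With marked spots kept, the 11 members with an unadjusted p under 0.05 kept their sign in each setting tried, except Masp1 on its other probe (0.11), and the median was -0.24 to -0.16 for complement and -0.13 to -0.05 for coagulation genes. With marked spots left out it was -0.19 to -0.05 and -0.13 to -0.04 (-0.23 and -0.10 in the authors' table). In that reading complement was nearer 0 than coagulation without linseed mouse 2 (-0.05 against -0.06) and without linseed mouse 5 (-0.07 against -0.09). With marked spots kept, the count of members past the threshold was 5 with slide as a fixed or random block, 3 with quantile normalization (Hc, Cfi, Cpb2) and in the authors' value table, and 1 with trend and robust eBayes (C2). Leaving out 1 mouse gave 0 to 1: C2 passed without palm mouse 6 and F11 without palm mouse 8. With marked spots left out it was 0 in each setting but the authors' table (3), which holds its own values. Habp2, the 1 other pathway gene called, was lost (0 called) without marked spots, with normexp, with the percentile over unmarked spots, with median scaling, without the filter on dim probes, without slide 1 and without slides 4 and 5; leaving out 1 mouse gave 0 to 1. Over all genes 149 passed, against 83 with normexp, 46 with the percentile over unmarked spots, 51 without the filter, 253 with slide as a random block, 31 without slide 1, 21 without slides 4 and 5, and 74 to 169 without 1 mouse.

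Replicate numbers did not pair the mice: over 8 pairs of the same number the correlation of deviations was -0.22 to 0.47, over 0.1 in 5, and 2 were best with their own number. With the replicate number as a block 26 genes, 0 members and 0 other pathway genes passed, and Cfb (-0.013) and Fgg (-0.020) changed sign.

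Other members changed sign, and the cause was not tested. They were, with quantile normalization, Cfb (-0.020), Fgb (-0.055), Fgg (-0.11), Kng1 (-0.081) and Serpinc1 (-0.063). In the authors' table they were C8g (-0.019), Fgb (-0.059), Fgg (-0.090), Kng1 (-0.064) and Serpinc1 (-0.066). With the percentile over unmarked spots they were Cfb (-0.026), C8g (-0.024) and Fgg (-0.022), and with median scaling Masp2 (0.0027), Proc (0.038) and Serpinf2 (0.0094). Without marked spots Serpinf2 was at 0.0060, with normexp Proc at 0.027, with a fixed slide block Cfb at -0.0055, and with the mean of a gene's probes C8g at -0.0083 and Kng1 at -0.023. On other probes, or without saturated spots, F10 was at -0.029 and Kng1 at -0.099; other probes gave C8g -0.033, F5 0.014 and Masp2 0.0031. Without slide 1 the signs turned for Cfb (-0.035), C8g (-0.0060), Fgb (-0.023), Fgg (-0.068), Kng1 (-0.020) and Serpinc1 (-0.010), and without slides 4 and 5 for C8g (-0.017) and Plg (0.0026). Leaving out 1 mouse gave C8g -0.033 to 0.047, Cfb -0.046 to 0.082, Fgb -0.011 to 0.13, Fgg -0.038 to 0.073, Kng1 -0.028 to 0.12, Proc -0.060 to 0.039 and Serpinf2 -0.078 to 0.016.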
